A study of Mus musculus with 4 samples.

Results

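The 10 genes described here encode the core of the BCL2 family, the proteins that decide at the mitochondrion whether a cell enters apoptosis. They were chosen by name, as *Bcl2*, *Bcl2l1* and *Mcl1* (survival proteins), *Bax* and *Bak1* (effectors) and *Bcl2l11*, *Bbc3*, *Pmaip1*, *Bid* and *Bad* (BH3-only proteins), and matched by symbol in GENCODE release M21 to 10 of the 55573 Ensembl genes counted in each library. RNA was sequenced from tdTomato-positive cells isolated by flow sorting from the basal telencephalon of E16 mouse embryos, the day of insemination being E1. The labels call the cells premature *Hmx3*-derived interneurons, and the study traces them to the preoptic area (POA), from which a subset of cortical interneurons migrates. Both genotypes carried *Hmx3-Cre* and the tdTomato reporter. In *Dnmt1* knockout cells (KO), Cre removed loxP-flanked exons of *Dnmt1*, which encodes the maintenance DNA methyltransferase, so that loss of the gene was limited to cells with a history of *Hmx3* expression. *Dnmt1* wild-type cells (WT) kept these exons. Each genotype had 2 libraries, from cells pooled over 12 WT and 6 KO embryos. The methods describe the libraries as technical duplicates of a pool and the labels as biological replicates, so the SDs and p-values below measure the spread between libraries, which may be technical. The sort kept only DAPI-negative cells, and cells whose membrane had already become leaky were therefore not sampled.

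Apoptosis of the intrinsic type turns on the outer membrane of the mitochondrion. BAX and BAK1 form pores in this membrane and let cytochrome c escape, which assembles with APAF1 and activates caspase-9 and the caspases that follow it. BCL2, BCL-XL (the main product of *Bcl2l1*) and MCL1 hold BAX and BAK1 in check. BH3-only proteins sense stress or loss of trophic support and either occupy the survival proteins or engage the effectors directly. Many developing neurons, cortical interneurons among them, die by this route, and in mice BAX is the effector on which neuronal death chiefly depends.

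Sequencing depth lay between 8075102 and 9995968 counts per library, so that 3 counts corresponded to 0.294 to 0.372 CPM (counts per megacount, each library total having been adjusted for its composition by TMM). Such floors cover counting error only. In WT replicate 1 the mitochondrial rRNA genes held 8.66% of all counts, against 1.51% to 2.32% in the other libraries. WT replicates differed more from each other than KO replicates did (chi-square per degree of freedom 57.2 and 4.28). This measure used raw counts that include these rRNA genes, so it is not a separate sign. The targeted gene *Dnmt1* was present at 385 and 446 CPM in WT and at 283 and 281 CPM in KO, just outside the threshold in edgeR (adjusted p = 0.0511) and within it in 9 of the 12 other fits to the same libraries. Genes that mark GABAergic neurons summed to 1280 to 1420 CPM in WT and 1100 to 1190 CPM in KO. The 4 POA markers, *Hmx3* among them, summed to 272 and 274 CPM in WT and to 216 and 242 CPM in KO, and none was called. The libraries differed most in markers of other cells. The 12 astrocyte markers summed to 307 and 310 CPM in WT and to 5140 and 5290 CPM in KO, where all 12 were higher (edgeR adjusted p under 0.05). *Gfap* stood at 0 counts in WT. Of 8 mural cell markers 7 were higher (63.1 to 72.1 CPM in WT, 419 to 424 CPM in KO, with *Acta2* at 0 counts in WT), as were 8 of 12 oligodendrocyte markers (448 to 523 CPM and 1110 to 1120 CPM). Of 5 glutamatergic neuron markers 2 were lower, with a sum of 382 to 409 CPM in WT and 205 to 231 CPM in KO. Of 8 general neuronal markers 3 were lower, and their sum was 5710 to 6320 CPM in WT and 4200 to 4280 CPM in KO. In such bulk libraries fewer cells of a type and less RNA per cell cannot be told apart.

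DNMT1 methylates CG dinucleotides, and the number of these in the promoters of the members is therefore given as background, although DNA methylation was not analysed here. Promoter windows from RefSeq (GRCm38.p6, 250 bases before to 50 bases after a transcript start) existed for 9 of the 10 genes, as 15 windows. Their median was 27 CG dinucleotides, against 7 over all 32851 windows. Those windows were not limited to expressed genes, so the contrast does not show a trait particular to this family. The *Bcl2* window was the richest with 44, more than in 97.8% of all windows, and a window of the internal *Bcl2l1* start had only 1. The 250 bases before the *Bcl2* and *Mcl1* starts are shown with every CG in capitals, as an example of the dense kind. *Mcl1* was the most abundant member per length of union exon (all exons of a gene merged). The *Bcl2* sequence is chr1:106714291-106714540 on the minus strand and the *Mcl1* sequence chr3:95658471-95658720 on the plus strand, and they hold 36 and 26 CG dinucleotides.
Bcl2: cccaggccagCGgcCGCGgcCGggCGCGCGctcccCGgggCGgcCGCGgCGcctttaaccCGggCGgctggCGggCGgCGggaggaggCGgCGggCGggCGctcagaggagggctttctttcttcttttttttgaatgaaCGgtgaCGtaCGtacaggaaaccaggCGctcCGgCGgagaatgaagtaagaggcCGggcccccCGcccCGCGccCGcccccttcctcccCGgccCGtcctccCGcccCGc
Mcl1: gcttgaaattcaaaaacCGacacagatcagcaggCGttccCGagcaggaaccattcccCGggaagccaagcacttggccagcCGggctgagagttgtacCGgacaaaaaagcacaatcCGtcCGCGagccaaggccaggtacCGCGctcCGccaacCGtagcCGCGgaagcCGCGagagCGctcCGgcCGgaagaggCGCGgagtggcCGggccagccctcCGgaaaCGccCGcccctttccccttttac

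None of the 10 genes passed the test between genotypes. At an edgeR adjusted p under 0.05, 0 of the 10 members were called, while 7.9% of the 16832 genes that passed the expression filter were (7.33% higher and 0.57% lower in KO). The unadjusted p was under 0.05 for 0 of the 10 as well, with 22.7% of all genes below that value, and DESeq2 and limma-voom likewise gave 0 at either threshold. All 10 genes passed the filter, with at least 43 counts in every library, and log2 fold changes (KO over WT) ran from -0.75 for *Pmaip1* to 0.39 for *Bak1*. The median was -0.22 over the members and -0.03 over all genes tested, and 3 of the 10 values were positive. Both KO libraries lay on one side of both WT libraries for 6 members, 1 above and 5 below. In all genes tested this held for 53.5% (28.3% above and 25.2% below), so that 60% among the members was near the background. A p above the threshold does not show equal levels, and intervals of the differences are therefore given. The count at the adjusted threshold stayed at 0 with DESeq2 size factors, library size only and upper quartile scaling, and did not with an offset that corrects each gene as well. This offset, for gene length and GC content and fitted in each library, moved the median log2 fold change of all genes by -0.28 and turned the split of all calls from 92.8% higher to 26.1% higher. With it 4 members were called lower, *Bcl2l1* (log2 fold change -0.44, edgeR adjusted p = 0.00853), *Mcl1* (-0.70, 0.00173), *Pmaip1* (-0.95, 0.0248) and *Bid* (-0.96, 0.0181), together with 4417 of all genes. After the same offset had been centred in each library, a step added once these values had been seen, the median moved by 0.03 and 0 members were called. At an unadjusted edgeR p under 0.05 there was 1 member with DESeq2 size factors, 2 with the replicate block and 3 with no filter. There were 3 with the centred offset and 5 with the uncentred one.

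**Figure D1:**
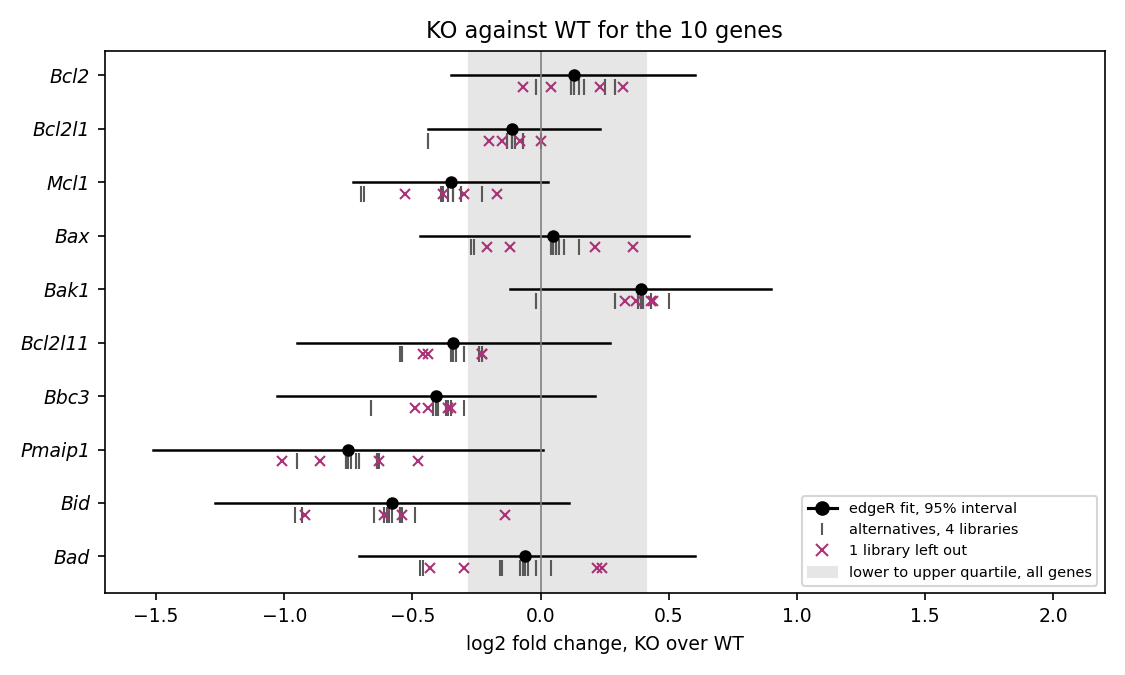
Log2 fold change of each gene in KO over WT (x axis), with black points and lines for the edgeR fit and its 95% interval, grey ticks for 12 alternative fits on all 4 libraries, crosses for fits without 1 library, and a band from the lower to the upper quartile of all genes tested (-0.28 to 0.41). Every black line crosses 0, and *Pmaip1* lies farthest from it at -0.75.

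Compared per length of union exon, the survival genes *Mcl1* and *Bcl2l1* were the most abundant members in every library. *Mcl1* stood at 50.1 and 39.2 CPM per kb in WT and at 36.1 and 33.8 in KO. *Bcl2l1* followed with 30.2 and 31.8 CPM per kb in WT and 27 and 30.7 in KO. *Bax* followed these at 17.1 to 25.4 CPM per kb over the 4 libraries. By union exon length the ranges of these 3 genes did not overlap within either genotype. *Bad* (6.09 to 9.65 CPM per kb) and *Bak1* (5.21 to 7.26) came next, and their ranges overlapped in KO but not in WT. *Bbc3*, *Bid*, *Pmaip1* and *Bcl2* lay between 1.73 and 6.07 CPM per kb. In WT the ranges of neighbours in this order overlapped, while *Bbc3* lay wholly above *Pmaip1* and *Bcl2*, and *Bid* wholly above *Bcl2*. *Bcl2l11* was the lowest in both genotypes with 1.07 to 1.56 CPM per kb. The gene that gave the family its name was thus present at 2.32 to 3.12 CPM per kb, and *Bcl2l1* exceeded it 8.65 to 13.7 times per length. By union exon length the first 7 places in the order were the same in WT and KO, and the only exchange was between *Bcl2* and *Pmaip1*. The order rests on the length used. The longest transcript has 2568 bases for *Bcl2l1* (4586 of union exon), 1100 for *Bax* (1576) and 3418 by either measure for *Mcl1*. By longest transcript *Bcl2l1* exceeded *Mcl1* in every library, and *Bax* and *Mcl1* overlapped in KO. Mean levels then put *Bak1* below *Bid* and *Bbc3* in WT and above them in KO.

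**Figure D2:**
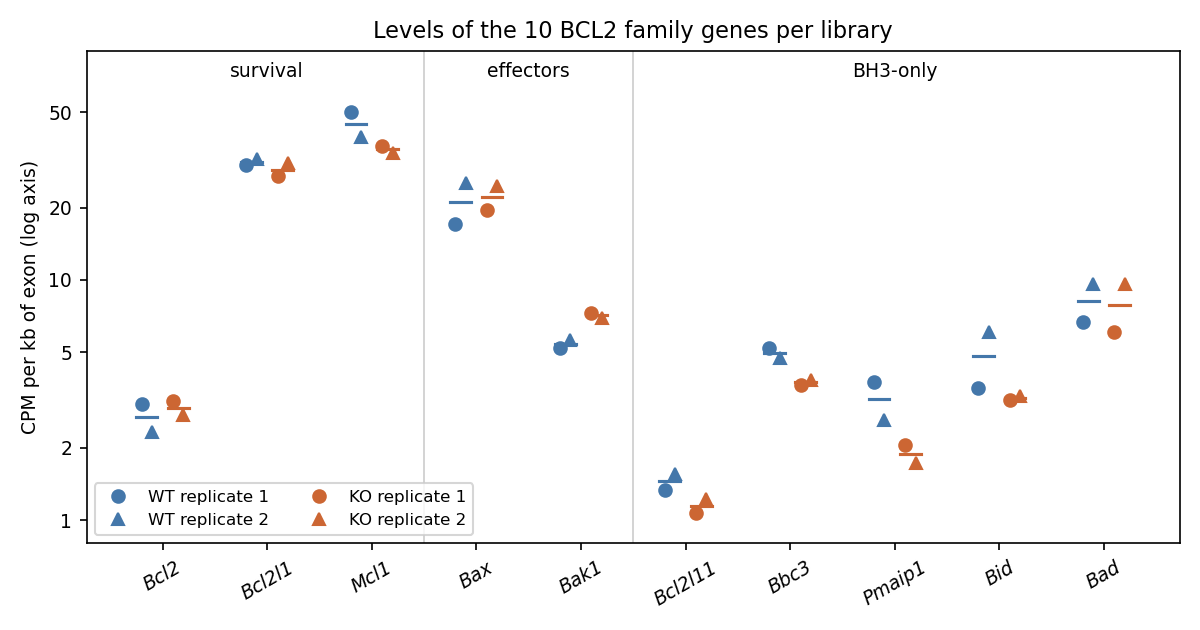
CPM per kb of exon on a log axis for each gene, by library (circles replicate 1, triangles replicate 2, blue WT, orange KO, bars the means of 2 libraries). *Mcl1* and *Bcl2l1* sit between 27 and 50.1, and *Bcl2l11* sits lowest at 1.07 to 1.56.

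*Bcl2* (chromosome 1, 106538178 to 106714274, minus strand, GRCm38) encodes the survival protein that was first linked to apoptosis and is known to protect embryonic neurons. It was counted 224 and 217 times in WT, 240 and 227 times in KO, or 27.8 and 21.3 CPM against 28.5 and 25. The groups overlapped. WT averaged 24.5 ± 4.63 CPM and KO 26.8 ± 2.5 CPM (SD, n = 2 each), a fold of 1.09 with a 95% interval of 0.787 to 1.52 (edgeR adjusted p = 0.759). An antisense RNA gene, *D630008O14Rik*, covers 6.09% of the exonic bases of *Bcl2*, and as the strand handling of the counting was not given, its reads cannot be told apart there.

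*Bcl2l1* (chromosome 2, 152780668 to 152831728, minus strand) encodes BCL-XL, on which the survival of young postmitotic neurons depends. Its counts were 1116 and 1488 in WT and 1040 and 1277 in KO, and gene counts do not separate BCL-XL from the short pro-apoptotic splice form of the same gene. Levels were 139 and 146 CPM in WT and 124 and 141 CPM in KO, so that the groups overlapped. The fold was 0.93 with an interval of 0.739 to 1.17 (edgeR adjusted p = 0.71).

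*Mcl1* (chromosome 3, 95658788 to 95663176, plus strand) encodes a short-lived survival protein that neural progenitors and newborn neurons need. It was counted 1379 and 1367 times in WT, 1038 and 1050 times in KO, or 171 and 134 CPM against 123 and 116. Both KO libraries were below both WT libraries, with WT replicate 1 farthest off. Means of 153 ± 26.3 CPM in WT and 120 ± 5.49 CPM in KO (SD, n = 2 each) gave a fold of 0.784 (95% interval 0.604 to 1.02, edgeR adjusted p = 0.247). Without WT replicate 2 the log2 fold change went from -0.35 to -0.53 and passed the threshold (edgeR adjusted p = 0.00205), with the single WT library assumed to vary like the KO libraries. Without WT replicate 1 it was -0.17 (adjusted p = 0.431). The call thus rested on which WT library was kept.

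Neither of the effectors, *Bax* and *Bak1*, passed the test. *Bax* (chromosome 7, 45461697 to 45466898, minus strand) was counted 217 and 408 times in WT, 260 and 351 times in KO. Its levels were 26.9 and 40 CPM in WT and 30.9 and 38.7 CPM in KO, so that both KO libraries fell between the WT libraries. The fold was 1.04 with an interval of 0.721 to 1.49 (edgeR adjusted p = 0.921). The gene *Gm45808*, on the same strand, shares 12.2% of its exonic bases. *Bak1* (chromosome 17, 27019810 to 27029009, minus strand) was counted 101 and 138 times in WT, 147 and 152 times in KO. It was the only member for which each KO library exceeded each WT library, at 12.5 and 13.5 CPM in WT and 17.5 and 16.7 CPM in KO. WT averaged 13 ± 0.696 CPM and KO 17.1 ± 0.52 CPM (SD, n = 2 each), a fold of 1.31 (interval 0.92 to 1.87, edgeR adjusted p = 0.338). Exons of *Ggnbp1* on the opposite strand overlap *Bak1*. Per length, *Bax* exceeded *Bak1* 3.28 and 4.52 times in WT and 2.7 and 3.53 times in KO, and these ranges overlapped.

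All 5 BH3-only genes had negative log2 fold changes, and none passed the test. The median over all genes tested was -0.03, so negative values were common. *Bad* lay at -0.06 and was positive with library size only (0.04). *Pmaip1* (chromosome 18, 66458533 to 66465565, plus strand) encodes NOXA, which binds MCL1 in particular and is a p53 target. It was counted 83 and 73 times in WT, 47 and 43 times in KO, or 10.3 and 7.15 CPM against 5.59 and 4.74. With means of 8.73 ± 2.23 CPM in WT and 5.16 ± 0.602 CPM in KO (SD, n = 2 each), the fold was 0.594 (interval 0.35 to 1.01, edgeR adjusted p = 0.226), the farthest from 1 of the 10 members. It was lower in both KO libraries than in both WT libraries. As for *Mcl1*, leaving out WT replicate 2 brought it past the threshold (log2 fold change -1.01, edgeR adjusted p = 0.0181), and leaving out WT replicate 1 did not (-0.48, adjusted p = 0.379).

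*Bid* (chromosome 6, 120891930 to 120916853, minus strand) encodes the protein that caspase-8 cleaves to carry a death receptor signal to the mitochondrion. Its counts were 101 and 220 in WT and 94 and 106 in KO, or 12.5 and 21.6 CPM against 11.2 and 11.7. WT replicate 2 alone stood apart, and WT replicate 1 was close to the KO libraries. The fold was 0.667 (interval 0.414 to 1.08, edgeR adjusted p = 0.291). The dependence on the WT library ran the other way round than for *Mcl1*: without WT replicate 1 the log2 fold change was -0.92 (edgeR adjusted p = 0.00168), and without WT replicate 2 it was -0.14 (adjusted p = 0.796). Exons of *Bcl2l13*, which lies on the opposite strand with 62.3 to 70.2 CPM, overlap 17.7% of the exonic bases of *Bid*.

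*Bbc3* (chromosome 7, 16308393 to 16318205, plus strand) encodes PUMA, the main mediator of p53-driven death in neurons. It was counted 89 and 103 times in WT, 65 and 74 times in KO, or 11 and 10.1 CPM against 7.73 and 8.15. The KO libraries were both lower, by more than the replicates of either genotype differed from each other, and the fold was 0.752 (interval 0.49 to 1.15, edgeR adjusted p = 0.406). *Bcl2l11* (chromosome 2, 128126038 to 128162547, plus strand) encodes BIM, which neurons induce when trophic support is withdrawn. It was counted 86 and 128 times in WT, 72 and 89 times in KO. Levels were 10.7 and 12.5 CPM in WT and 8.56 and 9.8 CPM in KO, again without overlap, and the fold was 0.79 (interval 0.517 to 1.21, edgeR adjusted p = 0.488). *Bad* (chromosome 19, 6941861 to 6951899, plus strand), whose product is silenced by AKT phosphorylation, was counted 138 and 252 times in WT, 131 and 224 times in KO. Its levels followed the replicate number rather than the genotype, with 17.1 and 15.6 CPM in replicate 1 of WT and KO and 24.7 CPM in replicate 2 of both. The fold was 0.96 (interval 0.61 to 1.51, edgeR adjusted p = 0.931). The opposite-strand gene *Gpr137* overlaps 20.5% of the exonic bases of *Bad*.

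The WT libraries thus parted the members into groups of their own. WT replicate 2 exceeded WT replicate 1 by 0.78 for *Bid*, 0.57 for *Bax* and 0.53 for *Bad* on the log2 CPM scale. It was lower by the same measure for *Pmaip1* (-0.53), *Bcl2* (-0.39) and *Mcl1* (-0.35). For *Bax*, *Bad*, *Pmaip1*, *Bcl2* and *Mcl1* the KO replicates differed in the same direction (0.32, 0.66, -0.24, -0.19 and -0.09), and for *Bid* by 0.06. The mitochondrial rRNA share differed between the WT replicates (8.66% and 1.51%) and hardly between the KO replicates (2.32% and 2.31%), and its part in the WT differences was not tested.

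Summed over the 10 genes, the level was 126 and 129 CPM per kb in WT and 109 and 118 in KO. The survival genes made up 66% and 56.8% of it in WT and 60.7% and 56.8% in KO. The effectors took 17.7% and 24% in WT and 24.6% and 26.6% in KO, and the BH3-only genes 16.3% and 19.1% against 14.7% and 16.7%. The shares of survival and BH3-only genes overlapped between genotypes. The share of the effectors was higher in both KO libraries, although WT replicate 2 was within 1 percentage point of KO replicate 1. Their summed level itself overlapped, at 22.3 and 31 CPM per kb in WT and 26.9 and 31.5 in KO. The summed level of the survival genes was 83.3 and 73.3 CPM per kb in WT and 66.2 and 67.2 in KO. That of the BH3-only genes was 20.5 and 24.7 in WT and 16 and 19.7 in KO. Both sums were lower in KO without overlap, which also held for 25.2% of single genes tested. With 2 libraries per genotype a permutation test could not go below 1 in 3, and none was made. The ratio of *Bax* to *Bcl2*, often read as a balance of death and survival, was 5.63 and 10.9 per length in WT and 6.29 and 8.98 in KO, so that both KO values lay inside the WT range.

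**Figure D3:**
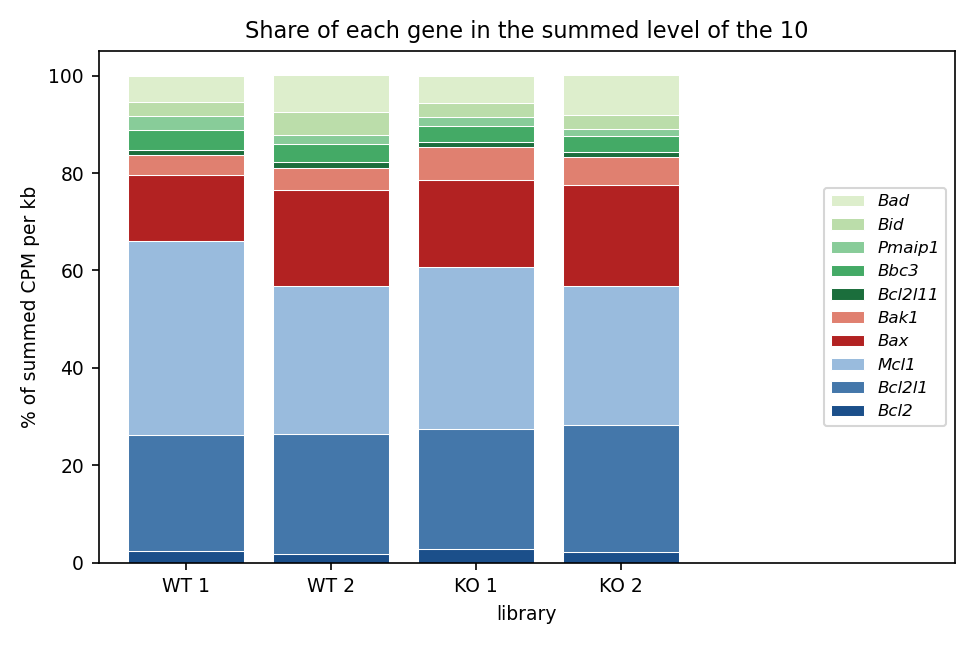
Share of each gene in the summed CPM per kb of the 10 genes (y axis, %), stacked for each library, with survival genes in blue, effectors in red and BH3-only genes in green. The blue part takes 56.8% to 66% of each bar. *Mcl1* is the largest piece in all 4 libraries by union exon length, and *Bcl2l1* exceeds it by longest transcript.

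The other genes of the pathway are given from 4 lists. Among 15 other genes of the BCL2 family, 8 passed the filter and 0 were called, against 7.9% of all genes. At an unadjusted p under 0.05 there was 1 in edgeR, DESeq2 and limma-voom alike, against 22.7% of all genes in edgeR. Their median log2 fold change was -0.21. *Bcl2l2*, which encodes the survival protein BCL-W of mature neurons, had 29.4 and 28.5 CPM in WT and 34.5 and 34.9 CPM in KO (fold 1.2, edgeR adjusted p = 0.386). *Hrk*, a BH3-only gene largely restricted to neurons, had 13.3 and 12.9 CPM in WT and 10.5 and 12 CPM in KO (adjusted p = 0.634). *Bcl2l10* and the haematopoietic paralogs *Bcl2a1a*, *Bcl2a1b* and *Bcl2a1d* had 0 counts in every library, although reads shared by near-identical paralogs may have been dropped. *Bik*, *Bcl2l14* and *Bcl2l15* had at most 9 counts in a library and were not tested. *Bcl2l2* and *Hrk* were picked out after their values were seen.

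Of 15 genes of the caspase cascade, all of which passed the filter, 1 was called, against 7.9% of all genes. This gene, *Birc3*, passed the filter only through its KO counts, so that a call could only be upward, and no other gene of the list was called. The median log2 fold change was -0.06. *Birc3* (chromosome 9, 7848699 to 7873186), which encodes the inhibitor of apoptosis cIAP2, was counted 1 and 0 times in WT, 20 and 13 times in KO. Over the summed counts this was a ratio of 34.5 (95% exact interval 5.77 to 1400, counting error only), and the call (edgeR adjusted p = 0.0272) was lost with DESeq2 (adjusted p = 0.0515) and without KO replicate 2 (0.0706), and without KO replicate 1 the gene did not pass the filter. Its fitted log2 fold change was 4.79, 5.08 with DESeq2 and 5.10 without KO replicate 2, and moved between 3.77 without WT replicate 2 and 7.14 without WT replicate 1. The initiator genes *Apaf1* and *Casp9* were not called, at 64.5 and 67.7 CPM against 61.3 and 51.4 and at 17.3 and 19.7 CPM against 19.4 and 22.7. *Cycs*, which encodes cytochrome c, had the most negative log2 fold change of the list, at 6.33 and 3.14 CPM in WT and 1.9 and 1.76 CPM in KO (-1.35, edgeR adjusted p = 0.158). Without WT replicate 2 it passed the threshold (-1.79, edgeR adjusted p = 0.00317). Its count is uncertain, since near-identical processed pseudogenes can share its reads. *Apaf1*, *Casp9* and *Cycs* were picked out after their values were seen.

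The death receptor list of 9 genes holds receptors and also *Fadd*, *Tradd*, *Ripk1* and *Cflar*, which act inside the cell. Of the 9 genes 7 passed the filter and 1 was called, where 7.9% of all genes were. The median log2 fold change over the 7 was 0.25, and the receptors among them went in both directions. *Tnfrsf1a* (chromosome 6, 125349362 to 125362484), the TNF receptor that most cell types carry, rose from 3.1 and 3.72 CPM in WT to 10.6 and 9.91 CPM in KO. On the log2 scale this was 1.58 ± 0.31 (SE, edgeR adjusted p = 0.0184), and without KO replicate 1 it was 1.54 (adjusted p = 0.0718). *Fas* was not counted in either WT library and 5 and 3 times in KO, and *Tnfrsf10b* 4 to 8 counts, too few for a test. *Tnfrsf21*, which encodes death receptor 6 and was picked out after its values were seen, had 119 and 127 CPM in WT and 82.3 and 89.1 CPM in KO. The KO libraries were both lower, and the gene missed the threshold (log2 fold change -0.52, edgeR adjusted p = 0.0712). It passed as lower in 7 of the 12 other fits to the same libraries, among them DESeq2 (-0.53, adjusted p = 0.0459), and without either WT replicate (-0.57 and -0.48, edgeR adjusted p = 0.00178 and 0.00796), but not without either KO replicate (0.602 and 0.495). Astrocyte and mural cell markers were higher in the same libraries as *Tnfrsf1a* and *Birc3*, and their part in these increases was not tested.

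Among 22 regulators of the members, all tested, 2 were called and both were higher in KO, a share near the 7.9% of all genes. Regulators had a median log2 fold change of -0.17. The direction of their calls depended on the fit, since the fits with no filter and with the length and GC offset, uncentred and centred, called the same number higher and 4, 14 and 5 genes lower. *Foxo1* (chromosome 3, 52268336 to 52353221) encodes a forkhead factor that activates BH3-only genes when AKT signalling is low. It was counted 72 and 50 times in WT, 202 and 286 times in KO, or 8.94 and 4.9 CPM against 24 and 31.5. The increase of 2.02 ± 0.32 log2 units (SE, edgeR adjusted p = 0.0058) kept its call in the 12 alternative fits and in the 4 fits without a library. An antisense gene covers 7.78% of its exonic bases. *Akt2*, one of the kinases that restrain FOXO factors and BAD, had 39.7 and 51.3 CPM in WT and 73.8 and 73.7 CPM in KO (0.69 ± 0.17, SE, on the log2 scale, edgeR adjusted p = 0.0449). Without KO replicate 1 or 2 the change was 0.70 in both cases and the call was lost (adjusted p = 0.203 and 0.229). *Foxo3*, the related factor, had 65.2 and 71.2 CPM in WT and 75.5 and 84.1 CPM in KO and was not called (adjusted p = 0.406). *Trp53*, which encodes p53, an activator of *Bbc3*, *Pmaip1* and *Bax*, had 30.9 and 36.5 CPM in WT and 32 and 43.6 CPM in KO (adjusted p = 0.676). *Foxo3* and *Trp53* were picked out after their values were seen. The astrocyte markers were higher in the same libraries as *Foxo1* and *Akt2*, and their part was not tested.

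**Figure D4:**
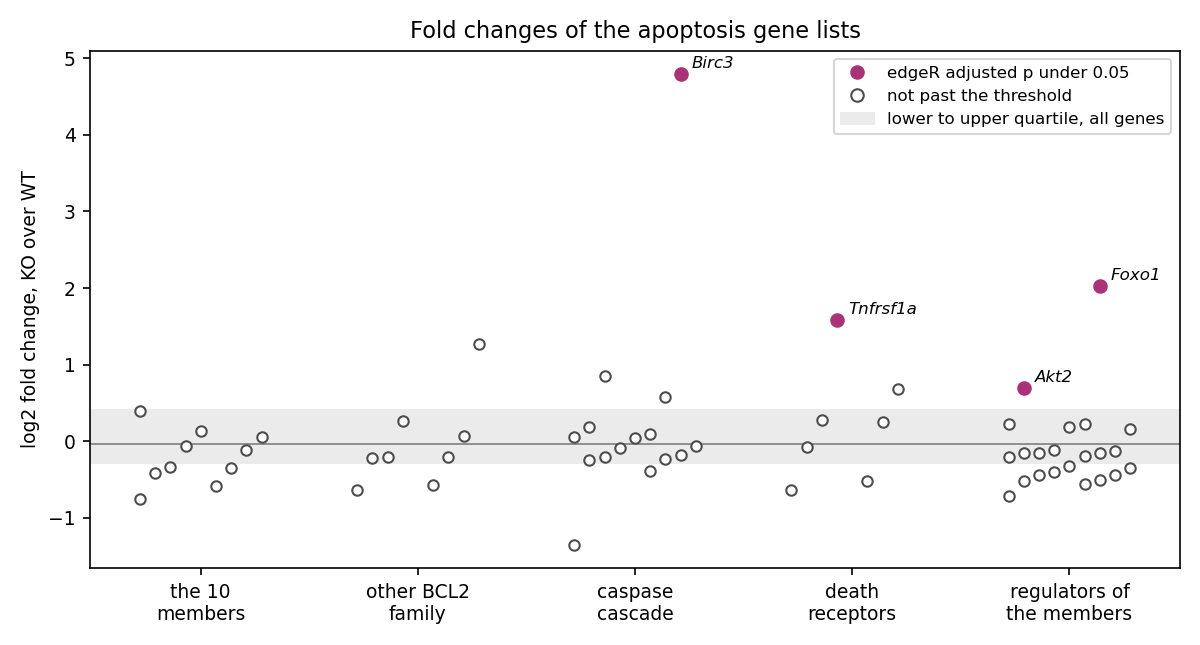
Log2 fold change in KO over WT (y axis) of each tested gene in 5 lists (x axis), with filled points for an edgeR adjusted p under 0.05 and a band from the lower to the upper quartile of all genes tested. The 10 members hold no filled point, and the filled points are *Birc3*, *Tnfrsf1a*, *Foxo1* and *Akt2*.

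As *Foxo1* rose and FOXO factors are known to act on *Bcl2l11* and *Bbc3*, the promoter windows were searched on both strands for the core of the FOXO binding motif, GTAAACA. This motif was chosen after the values were seen. It was found in 3.65% of all windows and in 2 of the members' 15 windows, 1 of *Bcl2l11* and 1 of *Bbc3*. The other windows of these genes held no match. The *Bcl2l11* match begins 227 bases before the start, and the *Bbc3* match lies 167 bases before the start of an internal transcript on the opposite strand. Both are shown with 10 bases on either side and the match in capitals, from chr2:128125801-128125827 on the plus strand and chr7:16310084-16310110 on the minus strand.
Bcl2l11: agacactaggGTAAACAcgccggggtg
Bbc3: cccattgtttGTAAACAaacccgccag
A match is not a binding site. The genes with these matches, *Bcl2l11* and *Bbc3*, had levels of 10.7 to 12.5 CPM and 10.1 to 11 CPM in WT and of 8.56 to 9.8 CPM and 7.73 to 8.15 CPM in KO. Both were lower in each KO library than in each WT library, which also held for 25.2% of all genes tested. Their log2 fold changes of -0.34 and -0.41 did not pass the test, and action of FOXO factors on these genes was not tested.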

How the data were processed

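The authors deposited raw counts of reads per Ensembl gene, 1 list for each of 4 libraries. The submitters' processing notes name CASAVA 1.8.2, STAR 2.5.2a and featureCounts 1.5.0-p1 with mm10 (GRCm38), and strand handling and annotation were not given in the sources used here. Unstranded counting would mix genes that overlap on opposite strands, and gene counts do not separate splice forms. Of the 55573 identifiers, 55480 matched GENCODE M21. Genes were filtered with filterByExpr (16832 left), scaled by TMM and tested by the quasi-likelihood method of edgeR 4.0.16 in R 4.3.3 (with limma 3.58.1), genotype being the only term, and Benjamini-Hochberg adjustment over all genes tested. Standard errors and 95% intervals were derived from the test statistic. CPM was divided by union exon length for comparisons between genes. Alternatives were DESeq2 1.42.0, limma-voom, other scalings and filters, the replicate number as a block, an offset for gene length and GC content, and each library left out. The offset also moved the scale between libraries and called 4 members, and a version centred at its median in each library was added after these values were seen. Members and lists were chosen with earlier results of these data known. Named genes were the 10 members, genes of the other lists past the threshold (the 6 with the largest change where more passed), listed genes that were not tested, and *Dnmt1*. Outside this rule, *Bcl2l2*, *Hrk*, *Apaf1*, *Casp9*, *Cycs*, *Tnfrsf21*, *Foxo3* and *Trp53* were named after their values were seen. Of the marker genes, otherwise given as list sums, *Hmx3*, *Gfap* and *Acta2* were also named. A gene of the caspase list is not reported here. The procedures were tested on simulated counts.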

Additional observations from a re-analysis of the deposited data

How the results depend on the processing

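Over 16 alternatives, 135 of the 160 refitted values of the 10 members kept their direction and their side of the threshold, 13 changed sign and 12 passed the threshold. Of the members, 0 were called in the main analysis, 4 with the length and GC offset, and 4 with the replicate block and this offset together (*Bcl2l1* -0.44, *Mcl1* -0.69, *Pmaip1* -0.95 and *Bid* -0.93 on the log2 scale). Centring the offset was decided after its values were seen, and gave 0 members alone and 1 with the replicate block (*Mcl1* -0.38, edgeR adjusted p = 0.029). The uncentred offset shifts the scale between libraries by construction (median of all genes -0.28), and which of the scalings is right was not tested. Signs turned with the offset, with and without the block, for *Bcl2* (-0.02 in both), *Bak1* (-0.02 in both) and *Bax* (-0.27 and -0.26), and with library size only for *Bad* (0.04) and *Bcl2l1* (0.00, just above 0), which moved the median of all genes by 0.11. Leaving out 1 library, with the lone one assumed to vary like the others, gave 0 to 2 members (*Bid* without WT replicate 1, *Mcl1* and *Pmaip1* without WT replicate 2), with *Bcl2* from -0.07 to 0.32, *Bax* from -0.21 to 0.36 and *Bad* from -0.43 to 0.24. Other BCL2 family genes called were 0, but 2 with the offset, 2 with offset and replicate block, and 0 to 1 without a library. Caspase cascade genes were 1, but 0 with DESeq2 or at least 10 counts, 5 with the offset, 6 with offset and replicate block, 2 with the centred offset with and without the block, and 0 to 5 without a library. Genes of the death receptor list were 1, which was higher, but 2 with DESeq2 or no filter (1 lower in both). They were 3 with the replicate block or either offset with and without it (1 lower in each). Regulators were 2, both higher, but 6 with no filter (4 lower), 5 with the replicate block (3 lower), 16 with the offset (14 lower), 15 with offset and block (13 lower), 7 with the centred offset with and without the block (5 lower in both), and 1 to 9 without a library. Over all genes 1233 were higher, but 2104 with the centred offset, 2216 with the block added, and 900 to 2578 without a library. The lower genes were 96, but 247 with DESeq2, 573 with no filter, 52 with at least 10 counts, 619 with the replicate block, 4417 with the offset, 4838 with offset and block, 669 with the centred offset, 788 with the block added, and 51 to 2180 without a library. Of the genes named outside the rule, the signs of *Bcl2l2* (-0.09), *Casp9* (-0.14), *Foxo3* (-0.04) and *Trp53* (-0.21) turned with the offset, with the same values when the replicate block was added. *Trp53* ranged from -0.07 to 0.38 without a library. *Apaf1* passed the threshold as lower with the offset (-0.39) and with offset and block (-0.38), and *Cycs* did so in these fits (-1.42 and -1.41) and without WT replicate 2 (-1.79). The cause of these changes was not tested. The share of higher genes among the calls was 92.8%, 72.4% with the replicate block, 75.8% with no filter, 75.9% with the centred offset (73.8% with the block added), 26.1% with the offset, 25.7% with offset and block, 66.5% without WT replicate 1 and 48.2% without WT replicate 2. Same-numbered libraries share only a number, and their deviations from the group means correlated by 0.183 across genes. The shares of survival, effector and BH3-only genes moved by less than the SD between replicates with the longest transcript, and rescaling a library cannot change them. The order of single members did change with the longest transcript, which put *Bcl2l1* above *Mcl1* in every library. With 43 to 47 counts of *Pmaip1* in KO, counting error is part of its wide interval.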
